A study of Mus musculus with 15 samples.

Results

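Offspring quadriceps muscle was compared between exercised and sedentary dams, pooled over 2 breeding designs in which one parent had eaten a high-fat diet. The 6 exercised libraries came from group MHE (a mother fed high-fat diet, with a running wheel during pregnancy) and group PHE (a father fed high-fat diet, mated with a lean mother that had the wheel). The 6 sedentary libraries came from MHS and PHS, which had the same high-fat mother or father and a dam housed with a locked wheel. Libraries were chosen by these group labels, 12 of the 15 in the series, with parent arm (maternal for M, paternal for P) as a covariate. The other 3 libraries are chow controls (NCS, both parents on chow and the dam sedentary). They entered the filter on the mean count and an alternative fit of all 15 libraries, but no other test here. All parents were C57BL/6 mice. High-fat animals ate a 60% high-fat diet for 6 weeks from 8 weeks of age, and there were 8 high-fat mothers and 4 high-fat fathers. The offspring of every group ate chow and were sedentary from birth, carried no engineered allele named in the labels, and were 10 months old at collection. The pooled comparison mixes exercise of a dam fed high-fat diet in one arm with exercise of a lean dam in the other. By its title, the study set out to learn if exercise of the pregnant dam prevents a decline of metabolic function in adult offspring of obese parents. The labels give neither the litter nor the sex of an animal, so the p-values measure only the spread between these samples, some of which may be littermates. Xist had 826 to 3578 reads and 4 genes of the Y chromosome had 0 to 8 reads together in every library of the series.

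Skeletal muscle breaks protein down through the ubiquitin-proteasome system, in which muscle-restricted ligases such as Trim63 (MuRF1) and Fbxo32 (atrogin-1) tag proteins for the proteasome. FoxO transcription factors and the glucocorticoid receptor are known activators of these ligase genes, while insulin signalling restrains FoxO. Energy comes largely from oxidative phosphorylation, whose complexes combine subunits encoded in the nucleus and in the mitochondrial genome, and estrogen-related receptor alpha (Esrra) with its PGC-1 coactivators is a known activator of the nuclear subunit genes. Myostatin (Mstn), secreted by muscle, limits muscle growth.

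The stretches of 250 bases upstream of the annotated start of 3 genes are printed because each belongs to a group described in the results: Trim63 to the ubiquitin ligases, Gclm to the glutathione genes and Atp5g3 to ATP synthase. Of the members considered, each had the smallest unadjusted p among those whose stretch held the motif searched for its group. For Atp5g3 the group searched was the nuclear-encoded subunits of complexes I to V together. Not every chromosome was considered. Sequences are from RefSeq (GRCm38.p6), 5′ to 3′ on the gene's strand, and capitals mark matches to the 4 motifs given after them. Trim63 lies at chr4:134314870-134315119 on the plus strand, Gclm at chr3:122245307-122245556 on the plus strand and Atp5g3 at chr2:73911327-73911576 on the minus strand.

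Trim63: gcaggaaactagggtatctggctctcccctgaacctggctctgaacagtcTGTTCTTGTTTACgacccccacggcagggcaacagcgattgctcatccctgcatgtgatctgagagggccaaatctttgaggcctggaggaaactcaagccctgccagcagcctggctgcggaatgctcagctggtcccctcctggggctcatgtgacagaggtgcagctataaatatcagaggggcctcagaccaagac
Gclm: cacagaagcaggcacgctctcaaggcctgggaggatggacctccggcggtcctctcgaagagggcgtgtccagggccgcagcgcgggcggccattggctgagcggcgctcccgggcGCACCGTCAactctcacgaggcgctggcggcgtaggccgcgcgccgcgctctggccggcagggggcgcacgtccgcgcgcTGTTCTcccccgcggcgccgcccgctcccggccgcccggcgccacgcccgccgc
Atp5g3: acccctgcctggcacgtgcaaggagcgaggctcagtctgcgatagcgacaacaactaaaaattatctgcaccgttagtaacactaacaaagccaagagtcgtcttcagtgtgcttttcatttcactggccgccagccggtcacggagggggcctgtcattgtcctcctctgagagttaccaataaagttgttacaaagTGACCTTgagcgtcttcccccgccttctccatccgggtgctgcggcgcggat

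Both strands were searched for GTAAACA (a FoxO motif), TGTTCT (a glucocorticoid receptor half-site), TGACNNNGC (the core of the antioxidant response element) and AAGGTCA (an estrogen-related receptor half-site), none of which contains another, though TGACNNNGC and the opposite strand of AAGGTCA both begin with TGAC. In Trim63, TGTTTAC, the FoxO motif on the opposite strand, runs from base -194 to -188 relative to the start and follows TGTTCT at -200 to -195 without a gap. Gclm holds GCACCGTCA, an antioxidant response element on the opposite strand, at -134 to -126, and TGTTCT at -54 to -49. Atp5g3 holds TGACCTT, the estrogen-related receptor half-site on the opposite strand, at -52 to -46. Among 10129 promoters of genes tested, 2.12% held the FoxO motif, 10.7% the glucocorticoid half-site, 12.1% the antioxidant element and 2.88% the estrogen-related receptor half-site. The FoxO motif was found in 2 of 16 ubiquitin ligase promoters, the antioxidant element in 5 of 18 glutathione and thioredoxin promoters, and the estrogen-related receptor half-site in 3 of 33 complex I promoters and 3 of 31 promoters of complexes II to V. The glucocorticoid half-site was found in 0 of 19 promoters of the glucocorticoid and fasting list, in 3 of 16 ligase promoters and in 5 of 18 of the glutathione and thioredoxin list. A match describes the letters only.

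The exercised libraries held 18457663 to 25702946 counted reads and at least 1 read for 19062 to 20080 genes, against 22350676 to 26981745 reads and 17581 to 20771 genes in the sedentary libraries. The lowest number of detected genes was in MHS replicate 3. Genes of mature muscle fibres made up a similar part of both groups: the muscle fibre list (12 of 12 tested) summed to 203365 to 257023 CPM (counts scaled to library size) in exercised libraries and 204206 to 260687 CPM in sedentary libraries. A list of 38 hepatocyte genes (37 tested) summed to 69.0 to 99.8 CPM in the exercised libraries, against 56.8 to 5803 CPM in the sedentary libraries, with 5803 in MHS replicate 2, 730.5 in MHS replicate 3 and 405 in PHS replicate 1. Values without these 3 libraries are given where they bear on a result. The titles of the samples are codes that the labels do not explain. Their first part is shared by all 3 MHS libraries with MHE replicate 3, and by PHS replicates 1 and 2 with PHE replicate 2, so a fit with this code as a covariate rests on those 2 exercised libraries.

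Offspring of exercised dams had higher means of most proteasome subunit, ubiquitin ligase and glucocorticoid or fasting response genes and of Mstn, and lower means of most nuclear-encoded respiratory chain genes, of Dmpk and of Zfp385a. The sizes were modest: among the 24 genes with the smallest p the log2 difference (exercised minus sedentary, 1 unit being a doubling) lay between -1.37 and 1.27. None of the 13499 genes passed: limma called 0 genes (0% of those tested) at a Benjamini-Hochberg adjusted p of 0.05, with 1898 genes at an unadjusted p of at most 0.05 and a lowest adjusted p of 0.127. Quasi-likelihood tests of edgeR called 0 genes (2031 at an unadjusted p of at most 0.05), limma voom called 0 (1787), and DESeq2 called 191 (2131), of which 109 were higher and 82 lower. As none passed, the genes named here are described by their values. The 1898 genes were 14.1% of those tested, 7.94% with a higher and 6.12% with a lower mean. The median log2 difference over all genes was -0.00. All 6 exercised libraries lay above all 6 sedentary libraries for 74 genes (0.548%) and below them for 50 genes (0.37%).

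Of the 12 genes with the smallest p and a higher mean, 9 had no overlap between the groups, beside 0.548% of all genes. Their choice by p in the same libraries favours this. Arrdc3, an arrestin-domain protein that acts in receptor trafficking (ENSMUSG00000074794.9, chromosome 13, 80883384 to 80896042, GRCm38), had 2237 to 4146 normalized counts in exercised libraries (median 2886), against 819.8 to 1962 in sedentary libraries (median 1058). Every exercised library lay above every sedentary one. The log2 difference was 1.27 ± 0.21 (SE), with 1.12 in the maternal arm and 1.42 in the paternal arm, a limma unadjusted p of 3.81e-05 and a limma adjusted p of 0.257. The chow controls averaged 1650.4 ± 75.8 (SD, n = 3), between the means of the 2 groups, and all lay within the sedentary range. Mstn (ENSMUSG00000026100.6, chromosome 1, 53061640 to 53068079) had 941 to 1644 normalized counts in exercised libraries (median 1385), against 391 to 1013 in sedentary libraries (median 708). The ranges touched at their ends, since MHE replicate 2 (941) and PHE replicate 1 (1008) lay below MHS replicate 1 (1013). Its log2 difference was 0.92 ± 0.20, with 1.02 in the maternal arm and 0.82 in the paternal arm (limma adjusted p = 0.258), and it was 0.68 without the 3 libraries richest in hepatocyte reads. Controls averaged 695 ± 141.

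Several of the others act in the secretory pathway. Xbp1, the transcription factor of the unfolded protein response, had 1567 to 1979 normalized counts (median 1615) in exercised libraries, against 1259 to 1421 (median 1313) in sedentary libraries, with no overlap and a log2 difference of 0.37 ± 0.08. Uggt1, which marks misfolded glycoproteins for another folding cycle in the endoplasmic reticulum, had 2305 to 2781 normalized counts (median 2587) in exercised libraries, against 1754 to 2169.7 (median 2023) in sedentary libraries, also without overlap. Golgb1 (giantin, a Golgi tether) averaged 2099.5 ± 289 normalized counts in exercised libraries and 1627 ± 78.2 in sedentary libraries (SD, n = 6 each), a log2 difference of 0.36 ± 0.08. Sec23ip, a partner of the vesicle coat protein Sec23, averaged 757 ± 76.4 normalized counts in exercised libraries and 553 ± 79.5 in sedentary libraries, a log2 difference of 0.46 ± 0.10. Both were without overlap. The lowest sedentary value of Sec23ip was that of MHS replicate 3 (402), far from the others. This common role was noticed after the values were seen, and no test of it was made. Tsr1, a ribosome assembly factor, averaged 702 ± 58 normalized counts in exercised libraries and 545 ± 32.5 in sedentary libraries, a log2 difference of 0.36 ± 0.07. Oser1, an oxidative stress responsive gene, averaged 190.3 ± 22.2 normalized counts in exercised libraries and 129 ± 13.5 in sedentary libraries (log2 difference 0.56 ± 0.11). Slc10a3, a member of solute carrier family 10, averaged 89.2 ± 20.9 normalized counts in exercised libraries and 49.7 ± 8.65 in sedentary libraries (log2 difference 0.82 ± 0.16). The log2 difference was 0.44 ± 0.09 for the transcription factor gene Zkscan1, without overlap. It was 0.52 ± 0.11 for Sp4, another transcription factor gene, and 0.64 ± 0.14 for Tbc1d15, a GTPase-activating protein for Rab7, both with overlap between the groups.

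Of the 12 genes with the smallest p and a lower mean, 6 had no overlap, beside 0.37% of all genes, which their choice by p again favours. Zfp385a, a zinc finger protein gene (ENSMUSG00000000552.9, chromosome 15, 103313895 to 103340093), had the smallest p of all genes. It had 76 to 171 normalized counts in exercised libraries (median 132), against 184 to 279.9 in sedentary libraries (median 236). No exercised library reached the lowest sedentary one. This gave a log2 difference of -0.88 ± 0.13, with -0.82 in the maternal arm and -0.93 in the paternal arm (limma adjusted p = 0.127, DESeq2 adjusted p = 1.12e-06). The 3 controls ranged from 134 to 310.1, a range that held all 6 sedentary libraries and 2 of the 6 exercised ones. Dmpk, the kinase whose human gene carries the repeat expansion of myotonic dystrophy (ENSMUSG00000030409.15, chromosome 7, 19083849 to 19093821), had 5117 to 6309.6 normalized counts in exercised libraries (median 5349), against 6284 to 8081 in sedentary libraries (median 7068). MHE replicate 2, at 6309.6, stood apart from the other 5 exercised libraries, which reached at most 5382, and lay just above PHS replicate 1 (6284). Dmpk had a log2 difference of -0.37 ± 0.07, with -0.43 in the maternal arm and -0.30 in the paternal arm.

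Mtss1, which bends membranes at actin-rich sites, had 237 to 311 normalized counts (median 273) in exercised libraries, against 325 to 372 (median 349.6) in sedentary libraries, with a log2 difference of -0.36 ± 0.08. Afap1l2, an actin-associated adaptor, had 52.2 to 78.1 normalized counts (median 65.1) in exercised libraries, against 83.8 to 116 (median 96.8) in sedentary libraries, with a log2 difference of -0.57 ± 0.13. Neither overlapped between the groups. Cux2, a homeobox transcription factor gene, averaged 44 ± 3.83 normalized counts in exercised libraries and 74.2 ± 17.9 in sedentary libraries, a log2 difference of -0.71 ± 0.14, and its exercised libraries lay close together. Bahcc1, a chromatin protein gene, averaged 379 ± 32.3 normalized counts in exercised libraries and 498 ± 79 in sedentary libraries, a log2 difference of -0.38 ± 0.09. Tmem94, a transmembrane protein gene, averaged 2123 ± 178 normalized counts in exercised libraries and 2781 ± 425 in sedentary libraries, a log2 difference of -0.38 ± 0.09. These 3 genes had no overlap either. With some overlap, the log2 difference was -0.39 ± 0.09 for Pfas, an enzyme of purine synthesis, and for Adprhl1, related to ADP-ribosyl hydrolases, -0.39 ± 0.09. It was -0.58 ± 0.11 for the kelch-like gene Klhl34 and -0.54 ± 0.12 for the hydrolase-fold gene Abhd14b.

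A930016O22Rik, a transcript on the opposite strand of the muscle creatine kinase gene Ckm, had 183 to 704 normalized counts in exercised libraries (median 239), against 524 to 977 in sedentary libraries (median 791). PHE replicate 1 (704) lay among the sedentary libraries. The log2 difference was -1.37 ± 0.28, and without PHE replicate 1 it was -1.64 ± 0.20 and the gene passed (limma adjusted p = 0.0218), as the one gene of that fit that did. Ckm averaged 376251 ± 57699 normalized counts in exercised libraries and 424824 ± 96017 in sedentary libraries, a log2 difference of -0.16 ± 0.16. Ckm was named after its values were seen. Of the 24 genes, 16 overlap another annotated gene and 12 one on the opposite strand. The library kit marks strand, but no label or note used here gives the strand setting of the counting. Values of overlapping genes, A930016O22Rik above all, are therefore uncertain.

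**Figure D1:**
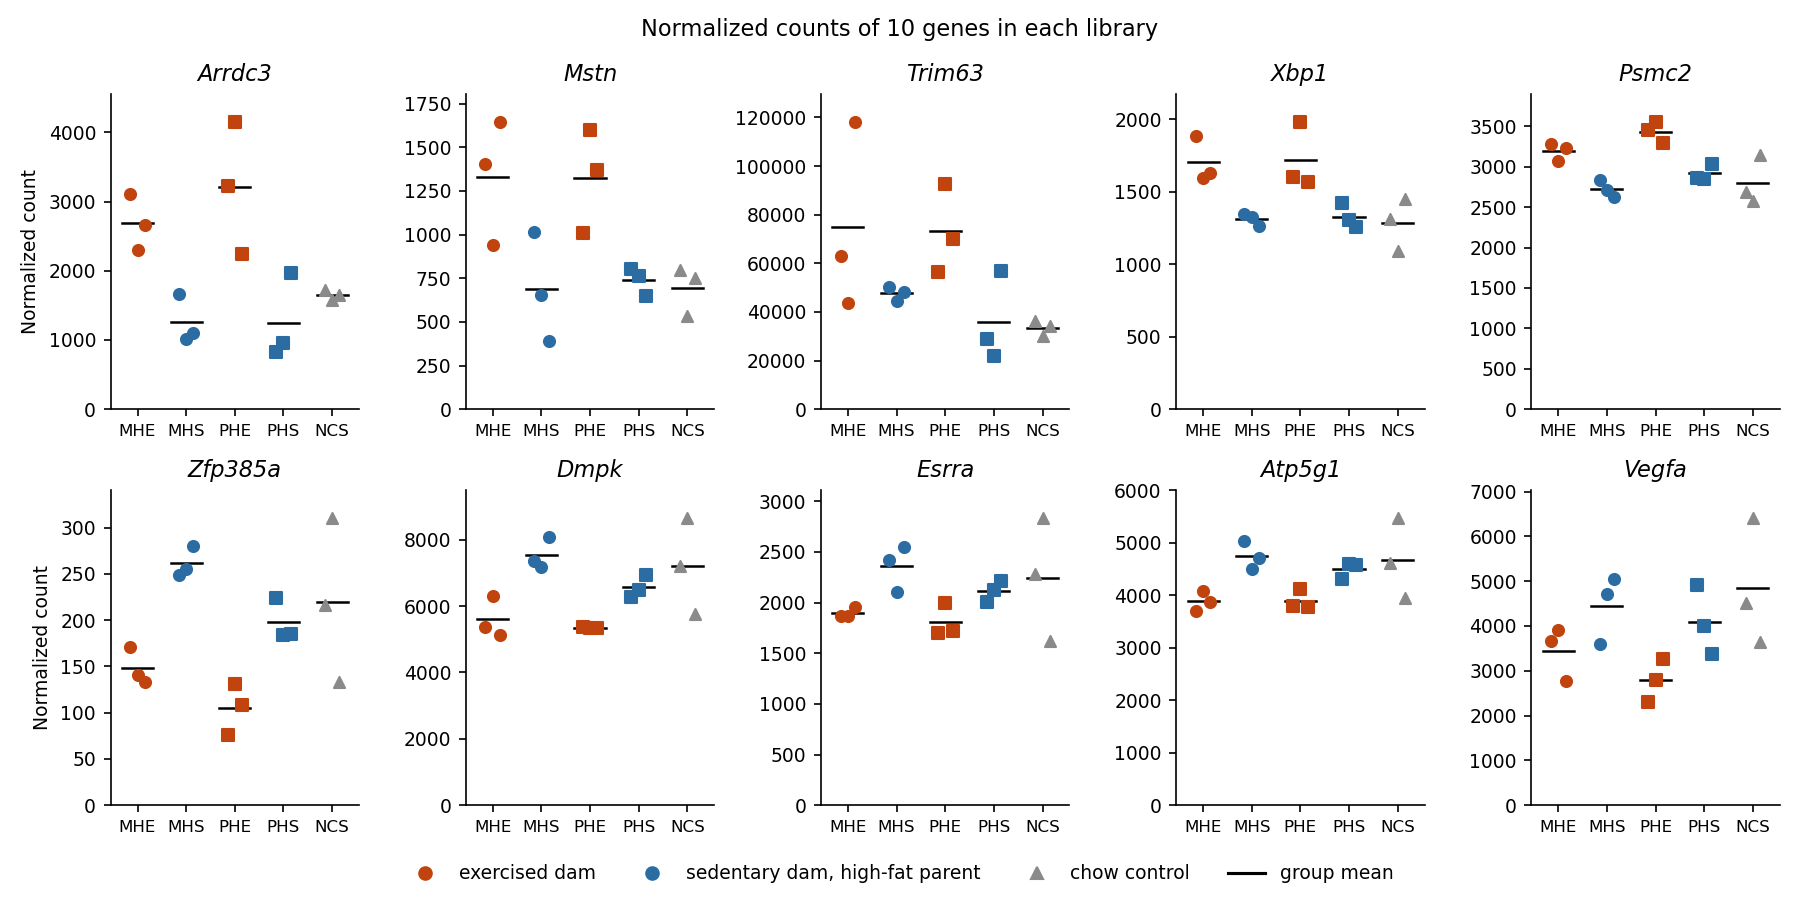
Normalized counts (linear axis from 0) of 10 genes in every library, exercised groups (MHE, PHE) left of their sedentary counterparts (MHS, PHS), and the chow controls (NCS) last; each point is 1 library and each bar a mean of 3. Arrdc3, Xbp1 and Psmc2 lie higher in all exercised libraries, while Zfp385a, Esrra and Atp5g1 lie lower in all of them; Mstn, Trim63, Dmpk and Vegfa overlap.

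Groups of genes were described from 38 lists of 825 symbols, of which 2 were not in the table. Of 32 proteasome subunit genes, 29 had higher means and 3 had lower means in exercised libraries, and 17 had an unadjusted p of at most 0.05 with a higher mean and 0 with a lower mean, beside 7.94% and 6.12% of all genes. The median log2 difference was 0.17, with 0.20 in the maternal arm and 0.12 in the paternal arm. Psmc2, an ATPase of the regulatory particle, had 3075 to 3551 normalized counts in exercised libraries (median 3292), against 2628 to 3038 in sedentary libraries (median 2842), with no overlap, and a log2 difference of 0.23 ± 0.06 (limma adjusted p = 0.258). Psmd1, a large scaffold subunit, was also without overlap, with means of 3472 normalized counts in exercised libraries and 3005 in sedentary libraries (log2 difference 0.21 ± 0.06). The other members overlapped. Psme4, the activator PA200, had 3778 to 4958 normalized counts (median 4789) in exercised libraries, against 2438 to 4604 (median 3407) in sedentary libraries (log2 difference 0.40 ± 0.11). Psmd11, of the regulatory particle, averaged 3291 ± 420.0 normalized counts in exercised libraries and 2638 ± 219 in sedentary libraries (log2 difference 0.31 ± 0.09). Psma5, of the core particle, averaged 685 ± 29.2 normalized counts in exercised libraries and 583 ± 61.1 in sedentary libraries (log2 difference 0.24 ± 0.07). The 3 subunits with lower means, given with their log2 differences, were Psmb5 (-0.09) and Psmb6 (-0.05), both catalytic, and Psmd13 (-0.01). Expressed as the median deviation of the members from the sedentary mean of the same arm, the list stood at 0.12 to 0.21 in the exercised libraries, against -0.08 to 0.09 in the sedentary libraries. The 2 sets of libraries did not overlap on this scale. The chow controls stood at -0.02, -0.14 and 0.18, the last within the exercised range. They belong to neither arm, so here and below their levels on this scale are not on equal terms with the others. As summed CPM the list did overlap, with 3507 to 3981 in exercised libraries and 2947 to 3635 in sedentary libraries. Without the 3 libraries richest in hepatocyte reads the median log2 difference was 0.12, with 9 members at an unadjusted p of at most 0.05.

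Of 20 ubiquitin ligase and atrophy genes, 14 had higher means and 6 lower means, and 8 had an unadjusted p of at most 0.05 with a higher mean and 1 with a lower mean. The median was 0.15, with 0.19 in the maternal arm and 0.13 in the paternal arm. Trim63 (ENSMUSG00000028834.13, chromosome 4, 134315120 to 134329629), whose promoter is printed above, had 43773 to 118067 normalized counts in exercised libraries (median 66518), against 21955 to 56876 in sedentary libraries (median 46214). The highest value was that of MHE replicate 3, and PHS replicate 3 (56876) lay within the exercised range. The log2 difference was 0.82 ± 0.26, with 0.53 in the maternal arm and 1.12 in the paternal arm (limma adjusted p = 0.262), and 0.54 without MHE replicate 3 and PHE replicate 2. Controls averaged 33554 ± 3041. Fbxo32 had 33085 to 62018 normalized counts (median 50225) in exercised libraries, against 24409 to 39088 (median 34602) in sedentary libraries, a log2 difference of 0.54 ± 0.15, with 0.53 in the maternal arm and 0.55 in the paternal arm. Traf6, a ligase that signals to NF-kappaB, averaged 464 ± 30.4 normalized counts in exercised libraries and 379 ± 56.1 in sedentary libraries (log2 difference 0.30 ± 0.09). Mdm2, the p53 ligase, averaged 1245 ± 80.2 normalized counts in exercised libraries and 1053 ± 137 in sedentary libraries (log2 difference 0.25 ± 0.08). Fbxo30 (MUSA1) had means of 442 normalized counts in exercised libraries and 266 in sedentary libraries (log2 difference 0.79 ± 0.29). Stub1, a chaperone-associated ligase, was the member at an unadjusted p of at most 0.05 with a lower mean. Its means were 688 normalized counts in exercised libraries and 868 in sedentary libraries (log2 difference -0.31 ± 0.12). The list's median was 0.10 without MHE replicate 3 and 0.26 with the title code as a covariate. Of 24 autophagy genes, 17 had higher means and 5 had an unadjusted p of at most 0.05 with a higher mean and 0 with a lower mean (median 0.08). Among them, with their log2 differences, were the receptor Nbr1 (0.23 ± 0.07), the lysosomal protease Ctsl (0.61 ± 0.20), the mitophagy receptor Bnip3l (0.26 ± 0.10) and Gabarapl1 (0.52 ± 0.21). Without the 3 libraries richest in hepatocyte reads 0 members were at an unadjusted p of at most 0.05.

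Glucocorticoid and fasting response genes had a median log2 difference of 0.41, with 0.35 in the maternal arm and 0.45 in the paternal arm. Of 25 members, 21 had higher means, and 13 had an unadjusted p of at most 0.05 with a higher mean and 0 with a lower mean. Ddit4 (REDD1), an inhibitor of mTORC1, had 2775 to 7449.9 normalized counts in exercised libraries (median 5682), against 687 to 5896 in sedentary libraries (median 1746). PHS replicate 3, at 5896, exceeded 3 of the 6 exercised libraries. Ddit4 had a log2 difference of 1.53 ± 0.46, with 1.37 in the maternal arm and 1.68 in the paternal arm (limma adjusted p = 0.262). Mt1, a metallothionein, had 318 to 1307 normalized counts (median 602) in exercised libraries, against 190.2 to 600.5 (median 273) in sedentary libraries (log2 difference 1.08 ± 0.35). Cebpb, a transcription factor gene, averaged 663 ± 113 normalized counts in exercised libraries and 487 ± 117 in sedentary libraries (log2 difference 0.46 ± 0.16). Cdkn1a (p21), a cell cycle inhibitor, averaged 3101 ± 1279 normalized counts in exercised libraries and 1747 ± 671 in sedentary libraries (log2 difference 0.82 ± 0.29). Fkbp5, a glucocorticoid receptor target, had means of 5635 normalized counts in exercised libraries and 3707 in sedentary libraries (log2 difference 0.64 ± 0.24). Glul, glutamine synthetase, had means of 24017 normalized counts in exercised libraries and 15237 in sedentary libraries (log2 difference 0.61 ± 0.25). Pdk4, which blocks pyruvate entry into the mitochondrion, averaged 99868 ± 20785 normalized counts in exercised libraries and 78410.5 ± 12468 in sedentary libraries (log2 difference 0.34 ± 0.15). Tat, the member with the lowest value (log2 difference -2.33 ± 1.45), is a liver enzyme gene whose means were 4.58 normalized counts in exercised libraries and 209 in sedentary libraries. The libraries with most hepatocyte reads are sedentary ones.

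As a median log2 deviation by library the glucocorticoid list stood at -0.10 to 0.70 in the exercised libraries, against -0.27 to 0.46 in the sedentary libraries. The highest were MHE replicate 3 (0.70) and PHE replicate 2 (0.64), followed by PHS replicate 3 (0.46), and MHE replicate 2 (-0.10) lay below 4 of the 6 sedentary libraries. The median was 0.74 with the title code as a covariate, 0.40 without the 3 libraries richest in hepatocyte reads, and 0.28 without MHE replicate 3 and PHE replicate 2. The members at an unadjusted p of at most 0.05 with a higher mean then numbered 21, 3 and 2, in that order, against 13 with all libraries. These counts over all genes were 1131, 608 and 471. The clock gene Per1, which also responds to glucocorticoids, had 3748 to 5356 normalized counts (median 4431) in exercised libraries, against 2046 to 5799 (median 3464) in sedentary libraries, and PHS replicate 3 was its highest library.

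Insulin and AMPK signalling genes had a median log2 difference of 0.13: 19 of 26 had higher means and 8 had an unadjusted p of at most 0.05 with a higher mean and 0 with a lower mean. Gsk3b, the kinase that restrains glycogen synthase, had 2147 to 4326 normalized counts (median 3342) in exercised libraries, against 2069.9 to 2552 (median 2234) in sedentary libraries (log2 difference 0.50 ± 0.14). Insr, the insulin receptor, averaged 3189 ± 524 normalized counts in exercised libraries and 2576 ± 363 in sedentary libraries (log2 difference 0.30 ± 0.12). Prkaa2, the muscle catalytic subunit of AMPK, averaged 6117 ± 1044 normalized counts in exercised libraries and 4903 ± 825 in sedentary libraries (log2 difference 0.32 ± 0.11). Eif4ebp1, which blocks cap-dependent translation, averaged 2674 ± 733 normalized counts in exercised libraries and 1857 ± 592 in sedentary libraries (log2 difference 0.53 ± 0.21). Foxo3 had means of 2614 normalized counts in exercised libraries and 1965 in sedentary libraries (log2 difference 0.39 ± 0.16). The insulin-responsive glucose transporter Slc2a4 (GLUT4) averaged 13499.9 ± 1785 normalized counts in exercised libraries and 13500.3 ± 1691 in sedentary libraries, a log2 difference of -0.00 ± 0.11, which took either sign across settings. Irs1, an insulin receptor substrate, had a log2 difference of -0.05 ± 0.19. The list's median was 0.22 with the title code as a covariate, and 3 members were at an unadjusted p of at most 0.05 without the 3 libraries richest in hepatocyte reads.

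Of 23 genes of the NRF2, glutathione and thioredoxin list, 14 had higher means, and 6 had an unadjusted p of at most 0.05 with a higher mean and 1 with a lower mean, with a median of 0.04. Gclm, the modifier subunit of glutamate-cysteine ligase whose promoter is printed above, had 298 to 563 normalized counts in exercised libraries (median 431), against 273 to 380.0 in sedentary libraries (median 309) (log2 difference 0.46 ± 0.14). MHE replicate 2 (298) lay among the sedentary libraries. Srxn1, sulfiredoxin, had 704 to 2369.8 normalized counts (median 1498) in exercised libraries, against 715 to 1291 (median 793) in sedentary libraries (log2 difference 0.75 ± 0.24). Txnrd1, thioredoxin reductase, averaged 2673 ± 416 normalized counts in exercised libraries and 2185 ± 173 in sedentary libraries (log2 difference 0.28 ± 0.10). Nfe2l2 itself, which encodes NRF2, averaged 1629.9 ± 329.9 normalized counts in exercised libraries and 1256 ± 26 in sedentary libraries (log2 difference 0.35 ± 0.12), with MHE replicate 2 at 1119.6, under all sedentary libraries. Gpx1, a glutathione peroxidase, went the other way, with means of 848 normalized counts in exercised libraries and 1362 in sedentary libraries (log2 difference -0.55 ± 0.22). Of 26 heat shock and unfolded protein response genes, 5 had an unadjusted p of at most 0.05 with a higher mean and 5 with a lower mean. Besides Xbp1, those with higher means, given with their log2 differences, were Hsph1 (0.22 ± 0.08), Hspa8 (0.17 ± 0.07), Atf4 (0.24 ± 0.11) and Atf6 (0.20 ± 0.09). Those with lower means were the small heat shock protein genes Hspb6 (-0.30 ± 0.08) and Cryab (-0.35 ± 0.11), the inducible Hsp70 genes Hspa1a (-0.43 ± 0.18) and Hspa1b (-0.59 ± 0.18), which are near-identical copies and so uncertain one by one, and Trib3 (-0.33 ± 0.15).

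**Figure D2:**
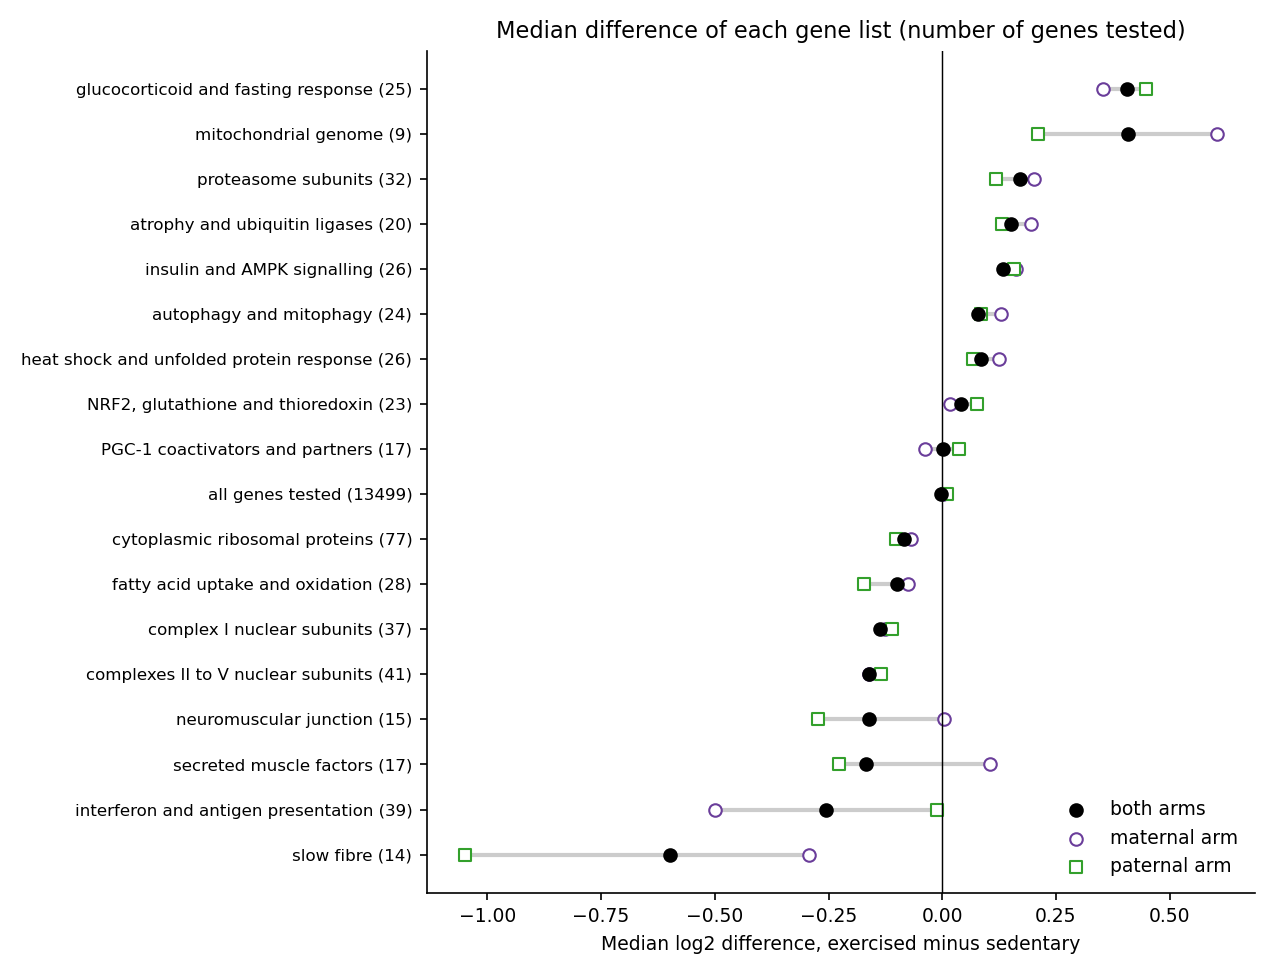
Median log2 difference (exercised minus sedentary) over the tested genes of each list and over all genes, for both arms together (black) and for the maternal (circles) and paternal (squares) arms; numbers of genes stand in parentheses. Proteasome, ligase and glucocorticoid medians lie above 0 and respiratory chain medians below 0 in both arms, while interferon, slow fibre, junction and secreted factor medians lie apart in the 2 arms.

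Most nuclear-encoded respiratory chain genes had lower means in both arms. Of 41 subunits of complexes II to V, 38 had lower and 3 higher means, and 0 had an unadjusted p of at most 0.05 with a higher mean and 21 with a lower mean, with a median of -0.16 (-0.16 in the maternal arm and -0.13 in the paternal arm). Of 37 complex I subunits, 30 had lower means, and 0 had an unadjusted p of at most 0.05 with a higher mean and 15 with a lower mean, with a median of -0.14 (-0.13 in the maternal arm and -0.11 in the paternal arm). Atp5g1, of the ATP synthase c-ring, had 3703 to 4119 normalized counts in exercised libraries (median 3831), against 4304 to 5043 in sedentary libraries (median 4589), with no overlap, and a log2 difference of -0.25 ± 0.06, with -0.29 in the maternal arm and -0.21 in the paternal arm (limma adjusted p = 0.258). Atp5g3, whose promoter is printed above, encodes the same c subunit and averaged 5670.0 ± 289 normalized counts in exercised libraries and 6404 ± 503 in sedentary libraries (log2 difference -0.17 ± 0.07). It was named for its promoter match. Cox7a1, the muscle isoform of a cytochrome c oxidase subunit, had 3346 to 3877 normalized counts (median 3566) in exercised libraries, against 3888 to 4738 (median 4386) in sedentary libraries (log2 difference -0.27 ± 0.07), again without overlap. Atp5e (log2 difference -0.21 ± 0.06) and Cox6c (log2 difference -0.16 ± 0.06) were without overlap too. Uqcrq of complex III averaged 4510.1 ± 261 normalized counts in exercised libraries and 5498 ± 695 in sedentary libraries (log2 difference -0.28 ± 0.08). Atp5k of ATP synthase averaged 3486 ± 158 normalized counts in exercised libraries and 4338 ± 501 in sedentary libraries (log2 difference -0.31 ± 0.08). In complex I, Ndufs6 averaged 2033 ± 62 normalized counts in exercised libraries and 2366 ± 220.2 in sedentary libraries (log2 difference -0.21 ± 0.07). Ndufc1 averaged 1974 ± 80.7 normalized counts in exercised libraries and 2358 ± 304 in sedentary libraries (log2 difference -0.25 ± 0.08), without overlap. The members with higher means in complexes II to V, given with their log2 differences, were Atp5l (0.41 ± 0.22), Uqcrb (0.15 ± 0.18) and Atpif1 (0.01 ± 0.13).

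Differences in these lists were small but similar across libraries. As a median log2 deviation, genes of complexes II to V stood at -0.21 to -0.09 in the exercised libraries, against -0.06 to 0.05 in the sedentary libraries, without overlap. The chow controls stood at -0.02, 0.12 and -0.12, the last within the exercised range. As summed CPM this list did overlap, with 12202 to 15027 in exercised libraries and 14147 to 16443 in sedentary libraries. Complex I genes stood at -0.20 to -0.04 in the exercised libraries, against -0.08 to 0.06 in the sedentary libraries, with MHE replicate 2 (-0.04) above the lowest sedentary libraries. For complex I the chow controls stood at 0.02, 0.11 and -0.13, the last again within the exercised range. Leaving out any 1 library kept the median log2 differences of the 2 lists between -0.18 and -0.15 and between -0.16 and -0.12. With the title code as a covariate they were -0.15 and -0.14, but 3 and 1 members were at an unadjusted p of at most 0.05 with a lower mean. The median was -0.06 for the TCA cycle list (18 of 22 lower), and citrate synthase (Cs) had a log2 difference of -0.06 ± 0.06. Cytoplasmic ribosomal protein genes, which are short and abundant like many respiratory subunit genes, had a median of -0.08, with 57 of 77 means lower and 10 at an unadjusted p of at most 0.05.

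Esrra and some of its partners also had lower means. Esrra had 1699 to 1999 normalized counts in exercised libraries (median 1870.0), against 2008 to 2550.2 in sedentary libraries (median 2167), with no overlap, and a log2 difference of -0.27 ± 0.07, with -0.31 in the maternal arm and -0.23 in the paternal arm. Its chow controls ranged from 1622 to 2832, beyond both groups at either end. Ppargc1b, a PGC-1 coactivator, had 104 to 155 normalized counts (median 121) in exercised libraries, against 155 to 223 (median 168) in sedentary libraries (log2 difference -0.51 ± 0.13). Sirt3, the mitochondrial deacetylase, averaged 201 ± 15.3 normalized counts in exercised libraries and 260.3 ± 38.9 in sedentary libraries (log2 difference -0.36 ± 0.10), without overlap. Ppargc1a had 323 to 729 normalized counts (median 456) in exercised libraries, against 392 to 788 (median 712) in sedentary libraries (log2 difference -0.39 ± 0.23, limma adjusted p = 0.435). Of the 17 genes of this list, 1 had an unadjusted p of at most 0.05 with a higher mean and 3 with a lower mean, and the median was 0.00. Of 28 fatty acid uptake and oxidation genes, 23 had lower means, and 0 had an unadjusted p of at most 0.05 with a higher mean and 6 with a lower mean, with a median of -0.10, which was -0.17 without MHE replicate 1. Acaa2, of mitochondrial beta-oxidation, averaged 3736 ± 632 normalized counts in exercised libraries and 4604 ± 339 in sedentary libraries (log2 difference -0.32 ± 0.09). For the list, PHE replicate 1 stood lowest of the 12 libraries compared (-0.44), and chow control replicate 1 stood at -0.45. Acads, a short-chain acyl-CoA dehydrogenase, averaged 2282 ± 141 normalized counts in exercised libraries and 2902 ± 557 in sedentary libraries (log2 difference -0.33 ± 0.10). Cpt1b, which admits fatty acids to the mitochondrion, averaged 268 ± 46.1 normalized counts in exercised libraries and 345 ± 40.1 in sedentary libraries (log2 difference -0.38 ± 0.11).

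Transcripts of the mitochondrial genome went the other way. All 9 tested had higher means, with a median of 0.41 (0.60 in the maternal arm and 0.21 in the paternal arm), and 1 was at an unadjusted p of at most 0.05. mt-Nd6 had 22135 to 37202 normalized counts in exercised libraries (median 28698), against 8331 to 31568 in sedentary libraries (median 23364). The 2 lowest values were sedentary, MHS replicate 3 (8331) and PHS replicate 3 (13787). By library the list stood at 0.12 to 0.93 in the exercised libraries, against -0.81 to 0.52 in the sedentary libraries, with -0.81 in MHS replicate 3 and -0.71 in PHS replicate 3. Without MHS replicate 3, the library with the fewest detected genes, the median was 0.20, and with the title code as a covariate it was 0.15. The others of 15 listed, such as mt-Co2, mt-Co3 and mt-Atp6, are listed at or near 0 in every library although all muscle fibres use them, and give no level here.

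**Figure D3:**
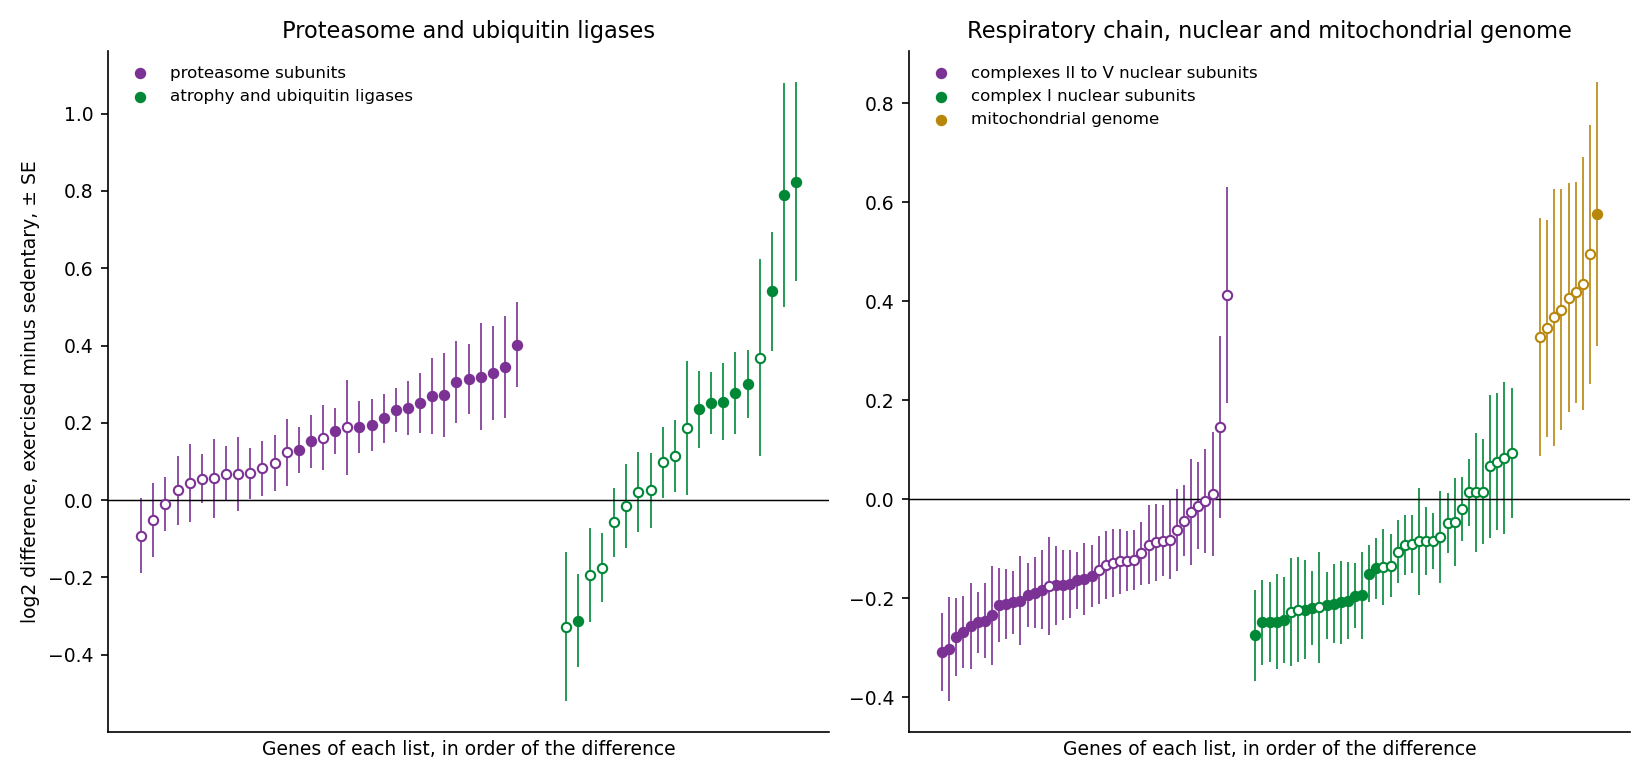
log2 difference (exercised minus sedentary) ± SE of every tested gene of 5 lists, ordered within each list; filled points had an unadjusted limma p of at most 0.05 and open points did not. Proteasome subunits lie mostly between 0 and 0.4, nuclear respiratory chain subunits mostly between -0.3 and 0, and all 9 mitochondrial genome transcripts lie above 0 with wide errors.

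Slow fibre genes had lower means in all 14 tested, with a median of -0.60 (-0.29 in the maternal arm and -1.05 in the paternal arm) and 5 at an unadjusted p of at most 0.05. The slow myosin heavy chain gene Myh7 had 3842 to 30503 normalized counts in exercised libraries (median 25042), against 24960.0 to 41403 in sedentary libraries (median 33031). PHE replicate 1 held the lowest value. Its log2 difference was -0.86 ± 0.39. The slow troponin Tnni1 had 623 to 5706 normalized counts (median 4051) in exercised libraries, against 4363 to 7740.3 (median 5866) in sedentary libraries (log2 difference -0.99 ± 0.39). The slow light chain Myl3 averaged 8686 ± 3233 normalized counts in exercised libraries and 12247 ± 1919.6 in sedentary libraries (log2 difference -0.60 ± 0.25). The list stood at -2.34 in PHE replicate 1, -0.85 in MHE replicate 3 and 0.16 in MHE replicate 1, against -0.39 to 0.33 in the sedentary libraries. Without PHE replicate 1 its median was -0.27. In the chow controls the list also varied widely, with -1.57 in replicate 1 and 0.28 in replicate 3. In bulk tissue, fewer slow fibres and less of these RNAs per fibre cannot be told apart, and the same holds for every cell type named here. Myh4, the fast myosin heavy chain, had a log2 difference of 0.00 ± 0.19. The fast fibre list had a median of -0.09 (-0.17 in the maternal arm and 0.05 in the paternal arm), with 0 members at an unadjusted p of at most 0.05 in either direction.

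Among 17 secreted muscle factor genes, Mstn had a higher mean, and the vascular growth factors Vegfa and Vegfb had lower means. Vegfa had 2299.7 to 3917 normalized counts in exercised libraries (median 3025), against 3369 to 5057 in sedentary libraries (median 4359.5) (log2 difference -0.46 ± 0.13). Vegfb averaged 2016 ± 78.2 normalized counts in exercised libraries and 2312 ± 161 in sedentary libraries (log2 difference -0.20 ± 0.06). Metrnl (meteorin-like), a factor released after exercise, averaged 34.5 ± 6.8 normalized counts in exercised libraries and 54.6 ± 15 in sedentary libraries (log2 difference -0.62 ± 0.21). Mstn and these 3 were the members at an unadjusted p of at most 0.05. The difference of Vegfa was -0.28 without the 3 libraries richest in hepatocyte reads. Fst (follistatin), which binds and blocks myostatin, showed no pooled difference beyond its error (log2 difference 0.10 ± 0.23), with arms that lay apart. In the maternal arm its 3 exercised libraries (58.3 to 69.2 normalized counts) lay above the 3 sedentary ones (29.2 to 46.6), a log2 difference of 0.73. In the paternal arm its exercised libraries (36.5 to 43.6) lay below the sedentary ones (47.3 to 65.4), a log2 difference of -0.53. The test of the difference between arms gave a limma p of 0.00158 and a limma adjusted p of 0.996, which did not pass.

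Interferon and antigen presentation genes had lower means in 33 of 39, and 0 had an unadjusted p of at most 0.05 with a higher mean and 14 with a lower mean. The pooled median of -0.25 joined unequal arms, -0.50 in the maternal arm and -0.01 in the paternal arm. By library the list stood at -0.69, -0.56 and -0.24 in MHE and at 0.02, -0.11 and 0.03 in PHE, against -0.14 to 0.13 in the sedentary libraries. H2-K1, an MHC class I heavy chain, had a pooled log2 difference of -0.37 ± 0.13, with -0.71 in the maternal arm and -0.03 in the paternal arm, and the test of the arm difference gave a limma p of 0.00475 and a limma adjusted p of 0.996. Gbp2, a guanylate-binding protein, had 71.2 to 111 normalized counts (median 94.5) in exercised libraries, against 112 to 240.3 (median 136) in sedentary libraries, with no overlap. Its log2 difference was -0.67 ± 0.18, with -0.99 in the maternal arm and -0.35 in the paternal arm. Irf1, an interferon-induced transcription factor, had 141 to 189 normalized counts (median 167) in exercised libraries, against 159 to 296 (median 216) in sedentary libraries (log2 difference -0.42 ± 0.12, with -0.52 in the maternal arm and -0.32 in the paternal arm). Nlrc5, the transactivator of class I genes, had a log2 difference of -0.66 ± 0.20, with -1.09 in the maternal arm and -0.24 in the paternal arm. The 3 MHS libraries share a title code with MHE replicate 3 alone. With this code as a covariate the median was -0.16, and 2 members with a higher and 2 with a lower mean were at an unadjusted p of at most 0.05.

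Markers of other cell types were checked in the same libraries. The 9 macrophage genes tested all had lower means (median -0.52, -0.65 in the maternal arm and -0.47 in the paternal arm), with 0 at an unadjusted p of at most 0.05. In the exercised libraries the list ran from -1.11 in MHE replicate 2 to 0.42 in MHE replicate 3, against -0.74 to 0.67 in the sedentary libraries. Its median log2 difference was -0.81 without MHE replicate 3, -0.27 without the 3 libraries richest in hepatocyte reads and 0.20 with the title code. Without MHE replicate 3 and PHE replicate 2 it was -0.81, with 7 of 9 members at an unadjusted p of at most 0.05 and a lower mean. Fibroblast and fibroadipogenic genes had lower means in 10 of 10 (median -0.11), of which 6 had the same direction in both arms. Without the 3 libraries richest in hepatocyte reads 6 of 10 were lower, and with the title code 2 of 10 (median 0.14). Schwann cell genes had lower means in 13 of 14 (median -0.16, and -0.36 with the title code). The 5 erythrocyte genes tested all had higher means (median 0.57, 0.03 in the maternal arm and 1.09 in the paternal arm). That median was 0.15 with the title code and 1.15 without the 3 libraries richest in hepatocyte reads. Hbb-bs, an adult beta globin with near-identical copies, had 662 to 1638 normalized counts (median 930.1) in exercised libraries, against 385 to 1151 (median 591) in sedentary libraries. Matrix genes had a median of 0.01 with 0.31 in the maternal arm and -0.29 in the paternal arm. Without MHE replicate 3 it was -0.28, and without MHE replicate 3 and PHE replicate 2 it was -0.26, with 25 of 30 means lower and 8 at an unadjusted p of at most 0.05. With the title code it was 0.63. MHE replicate 3 stood at 1.45 for this list and held 11030.5 normalized counts of Col1a1, against at most 2627 in the other 11 libraries. All 37 hepatocyte genes tested had lower means, with a median of -2.20 (-4.68 in the maternal arm and -0.08 in the paternal arm) that was 0.83 without the 3 richest libraries. The part of these cell types in the results above was not tested beyond the fits named here.

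**Figure D4:**
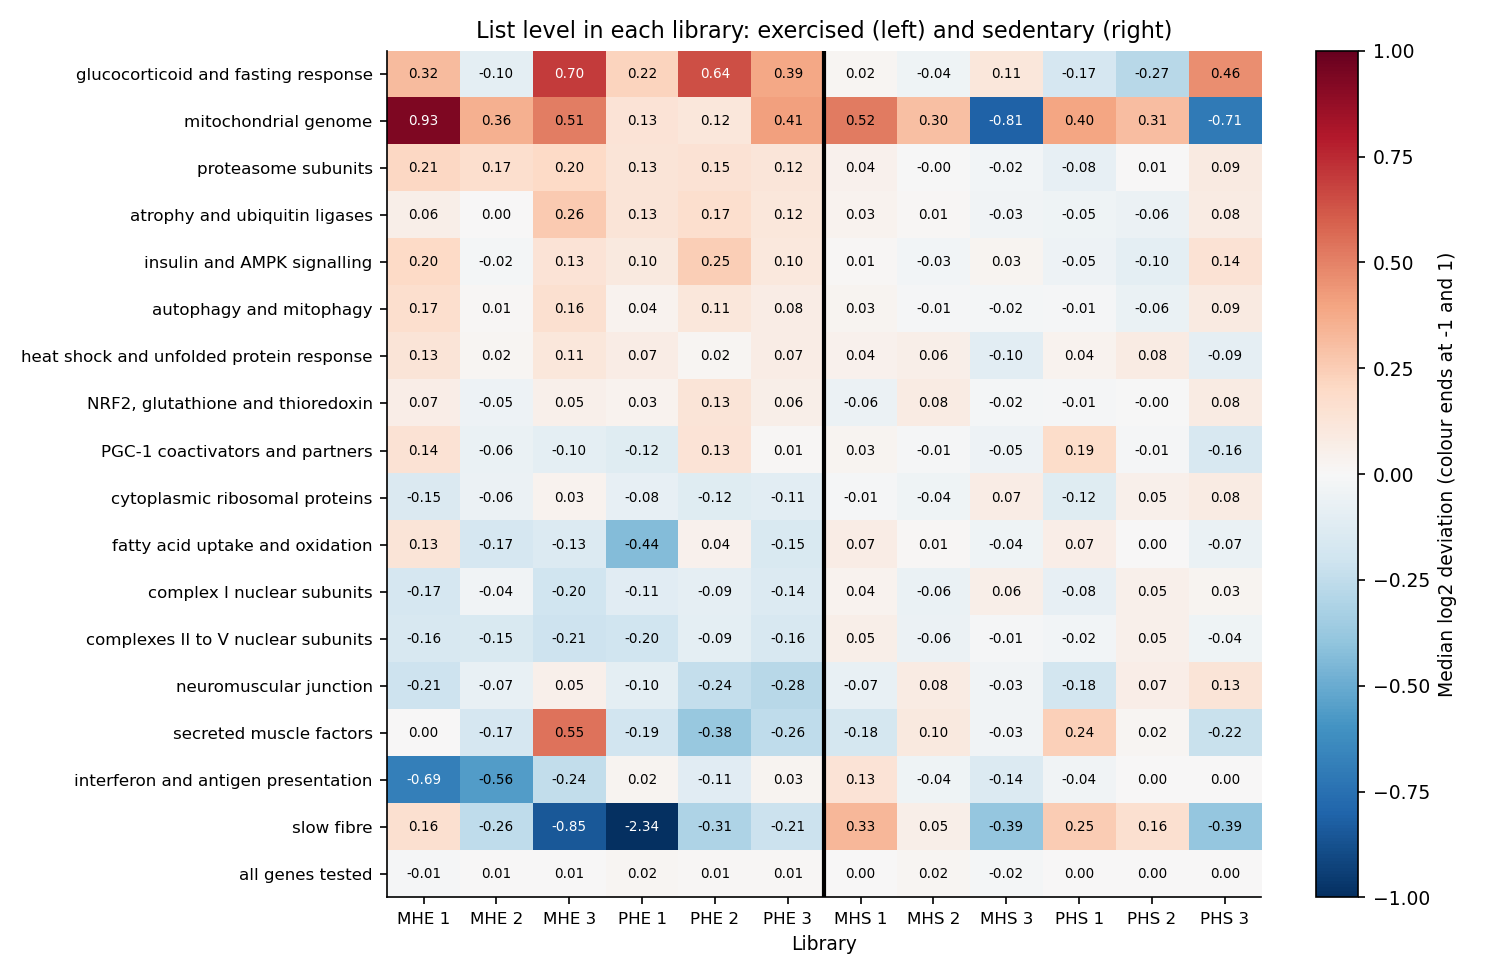
Level of each list in each library, as the median over its genes of the log2 deviation from the sedentary mean of the same arm, with the 6 exercised libraries left of the line and the 6 sedentary ones right of it; colours end at -1 and 1 and cells hold the values. On this scale, proteasome subunits and complexes II to V separate the 2 sets, though their summed CPM overlap. The glucocorticoid list peaks in MHE replicate 3, PHE replicate 2 and PHS replicate 3, and the slow fibre list is lowest in PHE replicate 1.

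The 2 arms share no library, so their exercise differences could be set side by side. Of 13499 genes, 8608 (63.8%) had the same direction in both arms, and across genes, which are not independent, Pearson's r was 0.31 and Spearman's rho 0.35. The points of each arm share 6 libraries and their depth. In the maternal arm 1549 genes (11.5%) had an unadjusted limma p of at most 0.05, and 82.2% of them had the same direction in the paternal arm. In the paternal arm 579 genes (4.29%) had such a p, and 83.8% had the same direction in the maternal arm. The 127 genes that were in both sets with the same direction made up 8.20% of the maternal and 21.9% of the paternal set. In each arm limma and edgeR called 0 genes (1655 and 562 at an unadjusted p of at most 0.05 with edgeR), and DESeq2 called 104 in the maternal arm, 97 of them lower, and 0 in the paternal arm. The test of the difference between arms called 0 genes with limma (274 at an unadjusted p of at most 0.05, 2.03%), edgeR (297) and DESeq2 (365). Without MHS replicate 1, the MHS library with few hepatocyte reads, limma called 5 genes higher and 139 lower in the maternal arm. Values of the 3 MHE and 3 MHS libraries, and of the 3 PHE and 3 PHS libraries, were both without overlap in the same direction for 176 genes with higher and 139 with lower values (1.30% and 1.03%), and in opposite directions for 27 (0.20%).

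**Figure D5:**
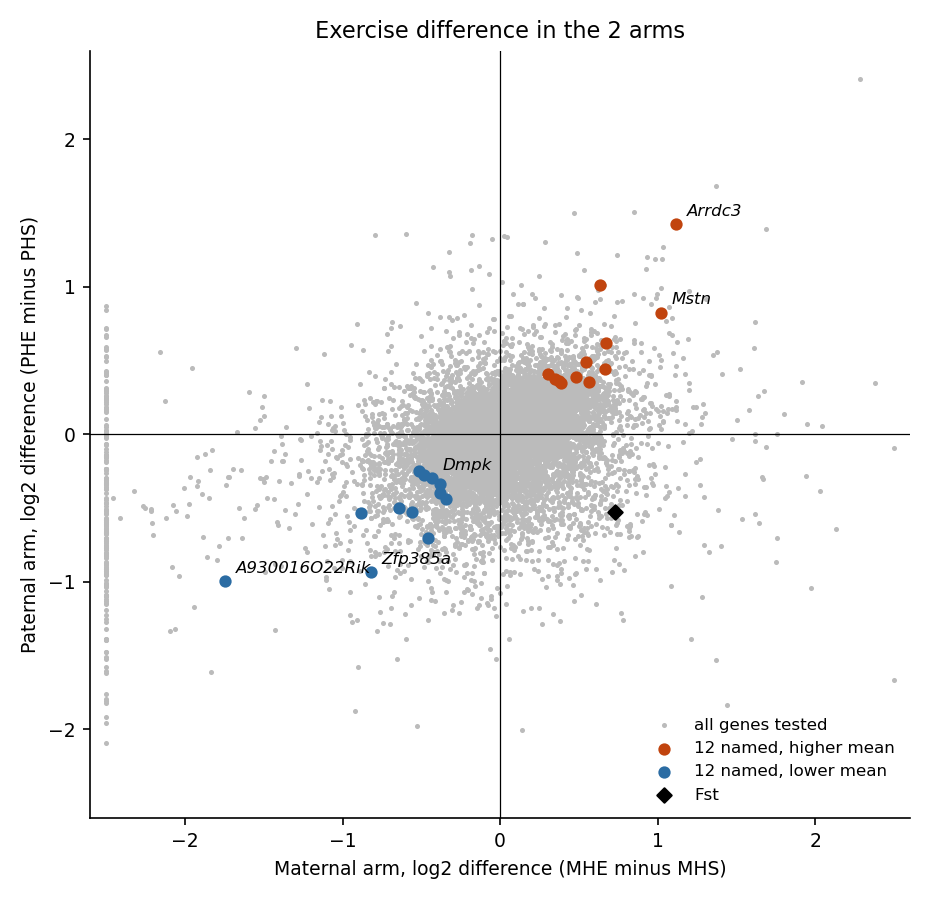
log2 difference of every gene tested in the maternal arm (x axis, MHE minus MHS) and the paternal arm (y axis, PHE minus PHS); 190 genes beyond 2.5 are drawn at the edge. The 12 named genes with higher means (orange) lie in the upper right and the 12 with lower means (blue) in the lower left, a position their choice favours, and Fst lies in the lower right.

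Calls differed between tests and fits. Of the 109 genes that DESeq2 called higher, 54 had their highest value in PHE replicate 2 and 24 in MHE replicate 3. Its 191 calls were 1.41% of all genes, and it gave no adjusted p for 3934 genes. Of the 191, 25 had their highest value in MHS replicate 2, the library richest in hepatocyte reads. The fit with the title code as a covariate, in which exercise is estimated from MHE replicate 3 and PHE replicate 2 alone, called 158 genes with limma (129 higher, 29 lower). The 28 genes called by both were 14.7% of the DESeq2 set and 17.7% of the title code set. Of 789 list members tested, DESeq2 called 31 (3.93%, against 1.41% of all genes), 9 of them hepatocyte genes, and 22 of 752 (2.93%) outside that list. It gave no adjusted p for 77 of the 789 and 72 of the 752. Such genes were a larger part of all genes, so these shares are not on equal terms. The title code fit called 26 of the 789 (3.3%, against 1.17% of all genes) and the pooled limma fit 0. Without MHE replicate 3 and PHE replicate 2, limma called 0 genes, with 1049 at an unadjusted p of at most 0.05.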

How the data were processed

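Total RNA of offspring quadriceps, extracted with TRIzol, was depleted of ribosomal RNA and made into stranded libraries, read as 100 bp single-end reads, per the labels' protocols. The submitters' processing notes name STAR 2.5.2b, featureCounts 1.5.2, DESeq2 1.11.8 and the mouse build mm10. The deposited values are a signal per gene and library: read counts that the authors divided by a size factor per library, here called normalized counts. In the 15 libraries the values were whole multiples of 1 step per library (100% within 0.001 reads), which gave back the counted reads. The 3 control libraries entered no count test. Of 50686 genes, 50376 (99.4%) matched the annotation, and 13499 with a mean of at least 10 over all 15 libraries were tested (37187 were not).

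Groups came from the labels. Log2(normalized count + 1) of the 12 libraries was fitted with limma 3.58.1 (R 4.3.3, trended empirical Bayes) with exercise and arm as terms, and p-values were adjusted by the Benjamini-Hochberg method over all genes tested, with a threshold of 0.05. Fold changes on this scale understate those of low genes. Arms and their difference came from a fit of 4 group means. As the deposited unit was not raw counts, edgeR 4.0.16 and DESeq2 1.42.0 on the recovered reads were alternatives, among 28, whose effect is given at the end. The named genes were the 12 with the smallest p in each direction (mean of at least 50 in either group), the 4 with the smallest p of each list, and a fixed set of genes central to muscle metabolism and to tissue checks. Fbxo30, Fkbp5, Foxo3 and other members beyond these, Atp5g3 and Ckm were added after values were seen. The members and the gene lists were chosen with earlier results of these data known. Replicates of a group differed by more than counting noise (18.0 to 87.3 times the chi-square that sampling gives), and none was counted as a repeat of another. Sequences and motifs came from RefSeq promoters (GRCm38.p6). Counting intervals do not apply to these means, whose error is the spread between libraries.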

Additional observations from a re-analysis of the deposited data

Results flagged for a closer look

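Several values stood apart from the 5 others of their group by Dixon's criterion, which chance meets in about 1 in 20 groups. It was met in 9 of 80 groups of 6 libraries. Among exercised libraries, MHE replicate 3 had 233 normalized counts of Oser1 (next 191), 11030.5 of Col1a1 (next 1119.6) and 6.76 of Alb (next 71.6). MHE replicate 2 had 6309.6 of Dmpk (next 5382). PHE replicate 2 had 314 of Bahcc1 (next 386), and PHE replicate 1 had 3842 of Myh7 (next 14133). Among sedentary libraries, MHS replicate 3 had 33.5 of Slc10a3 (next 46.9) and 402 of Sec23ip (next 549), and MHS replicate 2 had 163 of Abhd14b (next 125).

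Fst lay in opposite directions in the 2 arms, each without overlap, with a difference between the arms' log2 differences of 1.25 (limma adjusted p = 0.996). This did not pass over all genes.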

How the results depend on the processing

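The pooled limma comparison called 0 genes. DESeq2 called 109 higher and 82 lower, and the title code as a covariate gave 129 higher and 29 lower. Leaving out 1 library gave 0 higher and 0 to 1 lower, the 1 being without PHE replicate 1. In the maternal arm DESeq2 called 7 higher and 97 lower, and leaving out 1 library gave 0 to 5 higher and 0 to 139 lower, the highest without MHS replicate 1. Of 789 list members tested, DESeq2 called 31 (3.93%, against 1.41% of all genes) and the title code fit 26 (3.3%, against 1.17%). DESeq2 gave no adjusted p for 77 of the 789 and for 3934 of the 13499 genes, so its 2 shares are not on equal terms. The cause of these differences in calls was not tested. The other settings called 0 genes. With unadjusted p of at most 0.05, higher and lower genes numbered 1072 and 826 with all libraries, 699 and 795 with library totals as scaling, and 471 and 578 without MHE replicate 3 and PHE replicate 2, a setting chosen after seeing the data.

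The medians of proteasome subunits, complex I and complexes II to V did not move by over 1.5 times in the settings tried for lists. Every other list median did so in at least 1 setting, whether or not it lay within 0.1 of 0. Among medians within 0.1 of 0, those of PGC-1, circadian, matrix, lipid synthesis and adipocyte genes changed sign in some settings. So did the larger ones of secreted factor, immediate early, macrophage, MHC class II, lymphocyte, fibroblast and hepatocyte genes. Few named log2 differences turned direction. Slc2a4 was 0.0076 with library totals, 0.0022 with edgeR, 0.20 with the title code, 0.030 without MHS replicate 3, -0.072 to 0.083 on leaving out 1 library and -0.050 to 0.083 on leaving out 1 of MHE. Myh4 was -0.0012 with TMM scaling and -0.10 to 0.10 on leaving out 1 library. Fst was -0.14 without the 3 libraries richest in hepatocyte reads, -0.080 with the hepatocyte score as a covariate, -0.041 without MHS replicate 3, and -0.041 to 0.21 on leaving out 1. Alb was 1.39 without the 3 libraries and 0.40 with the score, and Hpx was 0.090 without the 3. Col1a1 was -0.30 without MHE replicate 3 and PHE replicate 2 and -0.42 to 0.62 on leaving out 1. Col5a3 was 0.059 with the title code. With 3 libraries per group and arm, the spread between libraries limits these values. For genes with few reads, the part that depth plays was not tested. No paired analysis was possible because the labels give no replicate numbers, and those used here follow accession order.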

Other observations

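Other gene groups are given as values, with 0 genes past the adjusted threshold in the limma fit. Circadian clock genes had a median log2 difference of 0.02. Rora, an activator of the clock gene Bmal1, averaged 2430.4 ± 569 normalized counts in exercised libraries and 1636 ± 499 in sedentary libraries (log2 difference 0.58 ± 0.19, limma adjusted p = 0.267). Cry2, a clock repressor, averaged 2681 ± 598 normalized counts in exercised libraries and 2001 ± 489 in sedentary libraries (log2 difference 0.43 ± 0.17, limma adjusted p = 0.309). Among immediate early genes, Btg2, an antiproliferative gene, averaged 2313 ± 1327 normalized counts in exercised libraries and 1053 ± 379 in sedentary libraries (log2 difference 1.01 ± 0.34, limma adjusted p = 0.28). The list's median was 0.10. It was 0.02 without MHE replicate 3, -0.00 without MHE replicate 3 and PHE replicate 2 (11 members higher and 11 lower), and 0.39 with the title code as a covariate. Genes of lipid synthesis had a median of -0.05. Gpam, which starts glycerolipid synthesis, averaged 3861 ± 575 normalized counts in exercised libraries and 5188 ± 666 in sedentary libraries (log2 difference -0.43 ± 0.11, limma adjusted p = 0.258). Agpat2, the enzyme of the next step, averaged 161 ± 27 normalized counts in exercised libraries and 259 ± 124 in sedentary libraries (log2 difference -0.59 ± 0.19, limma adjusted p = 0.262). Scd2, a desaturase, averaged 277 ± 34.9 normalized counts in exercised libraries and 352 ± 55.4 in sedentary libraries (log2 difference -0.34 ± 0.12, limma adjusted p = 0.28).

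Genes of the neuromuscular junction had a median of -0.16, with 0.00 in the maternal arm and -0.27 in the paternal arm. It was -0.07 without PHS replicate 3 and -0.07 with the title code. Ache, acetylcholinesterase, averaged 839 ± 135 normalized counts in exercised libraries and 1145 ± 248 in sedentary libraries (log2 difference -0.43 ± 0.15, limma adjusted p = 0.28), and Lrp4, the agrin receptor, averaged 245 ± 30.4 normalized counts in exercised libraries and 289.7 ± 26.6 in sedentary libraries (log2 difference -0.25 ± 0.10, limma adjusted p = 0.311). The myelin genes Mag and Mbp of the Schwann cell list had log2 differences of -0.57 ± 0.18 and -0.33 ± 0.14. Of the myogenic regulators, Myod1 averaged 71.3 ± 20.3 normalized counts in exercised libraries and 106 ± 24.2 in sedentary libraries (log2 difference -0.58 ± 0.22, limma adjusted p = 0.296), while Myog averaged 199.6 ± 33.5 normalized counts in exercised libraries and 153 ± 40.3 in sedentary libraries (log2 difference 0.40 ± 0.16, limma adjusted p = 0.314). Clcn1, the chloride channel of the fibre membrane, averaged 2810.2 ± 608 normalized counts in exercised libraries and 3502 ± 289.6 in sedentary libraries (log2 difference -0.34 ± 0.12, limma adjusted p = 0.291). Of 13 pericyte and smooth muscle genes, 11 had lower means and 2 higher means, with a median of -0.18. In the limma fit, 1 had an unadjusted p of at most 0.05 with a higher mean and 3 with a lower mean. Among them, Cspg4 (NG2) averaged 247 ± 36.2 normalized counts in exercised libraries and 316 ± 28 in sedentary libraries (log2 difference -0.36 ± 0.09, limma adjusted p = 0.258). Abcc9, a subunit of ATP-sensitive potassium channels, went against most of the list and was higher in every exercised library than in any sedentary one. It averaged 6974 ± 538 normalized counts in exercised libraries and 6015 ± 479 in sedentary libraries (log2 difference 0.21 ± 0.07, limma adjusted p = 0.262).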
